A study of Rattus norvegicus with 4 samples.

Results

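Glutathione transferases are a group of enzymes, and 10 of their genes are described here. These are *Gstm1*, *Gstm2*, *Gstm6* and *Gstm7* of the mu class, *Gstt1* and *Gstt3* of the theta class and *Gsta4* of the alpha class. The others are *Gstp1* of the pi class, *Gsto1* of the omega class and the membrane-bound *Mgst1*. All 10 were taken by symbol from the 30058 genes in the table of counts, and each symbol was found once. The question was in which cells of the rat anterior pituitary gland these genes are expressed, at which level, and whether the level differs between females and males. Single-cell RNA sequencing (10X Genomics, 3′ chemistry) had been done on dispersed anterior pituitary cells of Sprague Dawley rats after the posterior and intermediate lobes were removed. One pool of 4 pituitaries came from females in diestrus at postnatal day 44 and 1 pool of 4 from males at postnatal day 59, and each pool was run on 2 lanes. Lanes are technical replicates of 1 pool, so no error or p-value below measures the spread between animals. Sex, pool and age cannot be told apart. Tests between the sexes measure lane error. Tests between cell types use counts summed by type and sex, so their error includes type differences that are unlike in the sexes.

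Glutathione transferases join the tripeptide glutathione to reactive, electrophilic molecules such as products of lipid peroxidation and foreign chemicals, which makes these easier to export from the cell. Several members also reduce organic peroxides, and omega class enzymes act as thioltransferases and reduce dehydroascorbate. Many of the genes are known targets of NRF2 (*Nfe2l2*), a transcription factor that acts on antioxidant response elements. Folliculostellate cells (FSC) are the non-endocrine, glia-like cells of the anterior pituitary, which surround the hormone-producing cells (HPC).

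Cell types were set by the study's marker genes. The 6843 cells used of 7861 were 2315 FSC, 1888 somatotrophs (S), 792 corticotrophs (C), 483 lactotrophs (L), 239 gonadotrophs (G), 87 thyrotrophs (T), 546 leukocytes (Le), 132 endothelial cells (EC) and 361 erythrocytes (E). C, G, T, S and L are the 5 HPC types. Genes not used to find FSC were mostly highest there: *Sox9* reached 161 normalized CPM (CPM is the UMI count scaled to a common total, here with TMM factors, mean of 4 lanes) in FSC and at most 9.63 in the 7 other types of the fit, *Sox2* 175 and at most 19.6, *Aldh1a1* 295 and at most 83.8 (L), whereas *Vim* was 734 in FSC and 992 in EC. Lanes held 16206840 to 19720590 UMIs in the cells used. The median depth was 6900 UMIs per cell in FSC and between 9968 and 13660.5 in the HPC types. *LOC100911498*, which is *Xist*, was found in 61.6% and 62.8% of the cells of the female lanes and in 0.344% and 0.501% of those of the male lanes. Across lanes, 30 barcodes occurred more than once, and 50 of the cells used shared their barcode with a cell used of another lane.

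A level below is a share of the UMIs of a cell type. It does not separate fewer expressing cells from less RNA per cell, and because reads come from the 3′ end and each transcript is counted once, levels were not scaled by length and are not compared between genes. Free RNA reaches all cells of such a preparation: *Gh1*, the growth hormone gene made in S, was found in 100% of FSC and of E. Shares of cells with a UMI in E therefore serve as the background. *Gstm6*, *Gstt1* and *Gstt3* had a UMI in 0 of 361 E, which allows up to 0.831% of cells, and the other genes in 0.831% (*Gsto1*) to 3.32% (*Gstm1*). E had a median of 8246 UMIs per cell, most of them globin, so fewer other UMIs were sampled per E than per cell of the other types. As a share of the UMIs that are not globin, E held *Gstm1* at 46.8 CPM, *Gsta4* and *Gstp1* at 38.97, *Gstm2* at 27.3 and *Mgst1* at 23.4, on 6 to 12 UMIs each. On that scale no HPC type was above E for *Gstm1*, *Gstm2* or *Gsta4*, and the FSC level of *Gsta4*, 57.8, lay within the exact Poisson interval of E (18.7 to 71.7). What is said below of background refers to shares of cells alone.

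The 10 genes together made up 2445 and 2600 normalized CPM in FSC of the female lanes and 2697 and 2645 in FSC of the male lanes. By the mean of 4 lanes the same sum was lowest in Le, at 348 to 443 over the lanes. These overlapped with the lanes of C, at 401 to 445, and of T, at 393 to 580. In any lane of a type other than FSC the sum reached at most 770 (G, male). Without *Gstm2*, which helped to find FSC, the sum of the other 9 genes was 1888 and 1991 in the female and 2078 and 2045 in the male FSC lanes, and at most 768 in any lane of another type. The FSC lanes lay above every lane of the 7 other types either way.

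**Figure D1:**
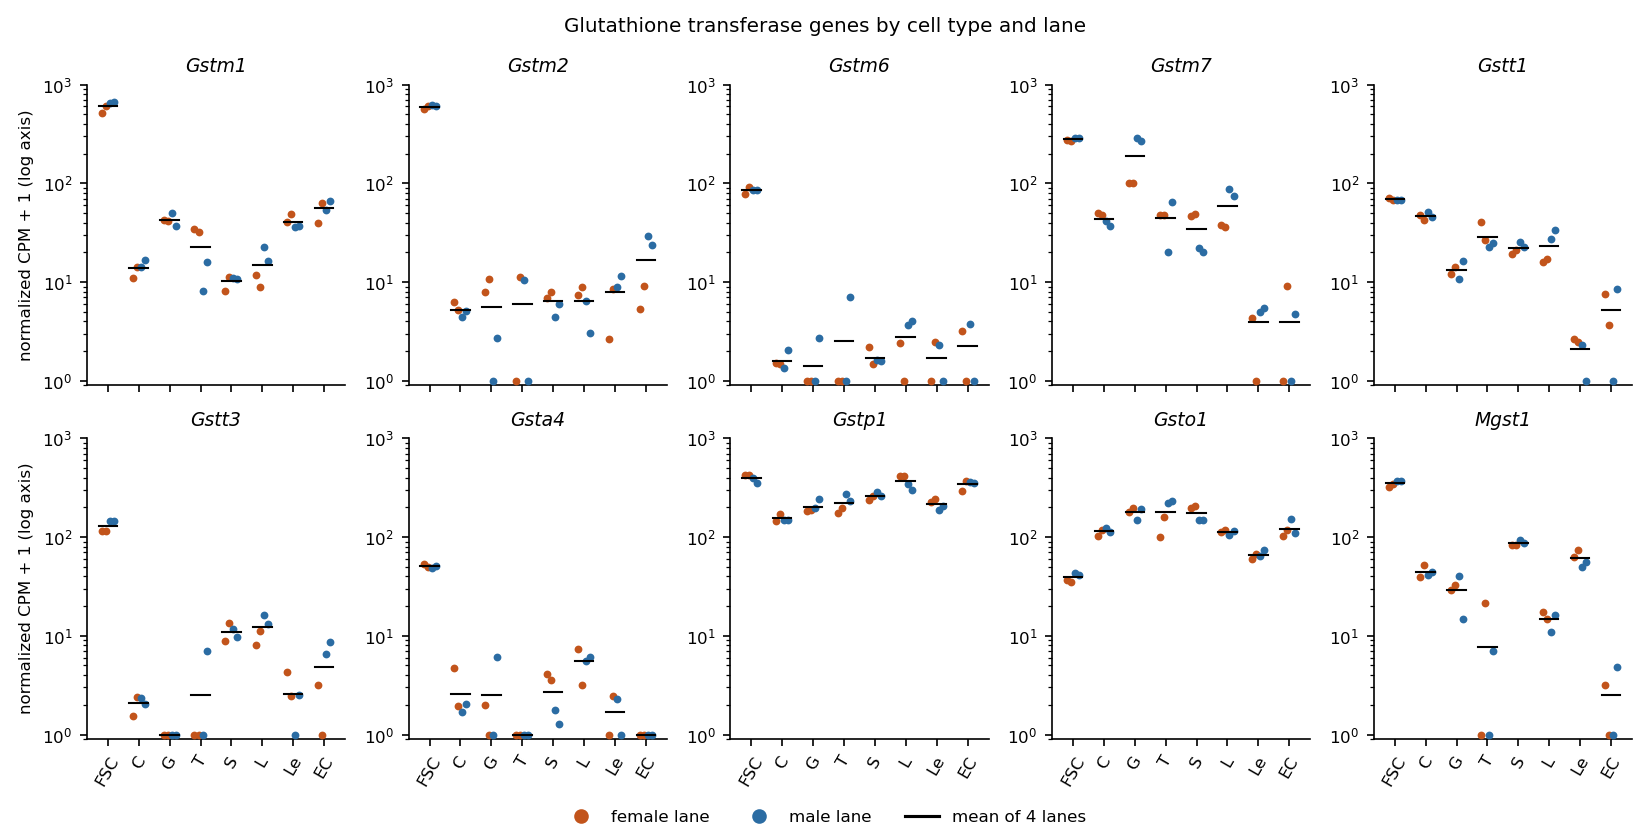
Normalized CPM + 1 on a log axis of the 10 genes in 8 cell types, with 1 point for each of 2 female and 2 male lanes and a bar at the mean of 4 lanes. *Gstm1*, *Gstm2*, *Gstm6*, *Gstt3*, *Gsta4* and *Mgst1* stand apart in FSC, *Gstp1* is spread over all types, *Gsto1* is lowest in FSC, and *Gstm7* splits by sex in G, S and L. *Gstm2* was one of the 4 genes used to find FSC.

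In FSC, 8 of the 9 genes that were not used to find these cells were higher than the mean of the 5 HPC types and 1, *Gsto1*, was lower (edgeR quasi-likelihood test on UMI sums per type and sex, adjusted p below 0.001). Over all 13609 genes tested, 17.3% were higher and 9.24% lower in FSC at this limit. All 10 genes passed the filter on low counts, but *Gstm6* and *Gsta4* met it only through FSC. Their place among the 8 is therefore a description. The median log2 fold change of the 9 was 3.82 against 0.09 over all genes tested. The genes were chosen with earlier results of these data known, so the count describes them and is no independent evidence on the family. Library size in place of TMM factors moved the median of all genes to 0.39, and the 9 calls kept their direction.

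*Gstm1*, a mu class enzyme of broad substrate range, was 518 and 605 normalized CPM in FSC of the female lanes and 655 and 659 in the male lanes. In the HPC types single lanes ranged from 7.13 (S) to 49.1 (G). FSC were above every HPC type in 4 of 4 lanes (log2 fold change 5.16, SE 0.17, adjusted p = 1.67e-12). Among the other types EC followed with 54.6 ± 11.5 (SD, n = 4 lanes), then G with 41.8 ± 5.50 and Le with 39.4 ± 5.59, and neighbours in this order did not differ at the limit. G were above S, the lowest type at 9.26 ± 1.44, by 2.13 (SE 0.30, adjusted p = 0.000122). *Gstm1* was expressed, by an Otsu threshold over all cells used, in 80.2% of FSC (exact 95% interval 78.5% to 81.8%) and in 0.106% of S.

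*Gstm2* was part of the rule for FSC, so its level there, 558 to 619 normalized CPM over the lanes, is a description. When FSC were found by the other 3 genes of the rule alone, which gave 2317 cells including all 2315, *Gstm2* was higher than in HPC (log2 fold change 6.80, SE 0.25, adjusted p = 5.58e-12, 4 of 4 lanes). In the other types of the fit it lay between 4.26 ± 0.77 in C and 15.8 ± 11.4 in EC, and none of these neighbours in the order differed. In C, G, T, L and Le the share of cells with a *Gstm2* UMI, 3.30% to 6.90%, was not separated from the 1.94% in E by its exact interval.

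*Gstm6* was 76.8 and 91.4 normalized CPM in FSC of the female lanes and 83.7 and 83.5 in the male lanes. No lane of any other type of the fit exceeded 6.01 (T), where a single lane held 2 UMIs. The log2 fold change over HPC was 6.55 (SE 0.25, adjusted p = 8.36e-12, 4 of 4 lanes). *Gstm6* met the filter on low counts through FSC alone, so this value is a description. Of the 7 other types none had a share of cells with a UMI that stood above the interval of E. At this depth *Gstm6* was above that background in FSC alone of the 8 types, and the Otsu threshold gave 40.3% of FSC (38.3% to 42.4%) as expressing.

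*Gstm7* was high in a second type. It was 275 and 265 normalized CPM in FSC of the female lanes and 283 and 285 in the male lanes, and in G it was 99.7 and 100.3 in the female and 289 and 266 in the male lanes. One male G lane thus lay above and the other within the range of the FSC lanes, and both female G lanes lay below it. Over both sexes FSC and G did not differ at the limit (log2 fold change 0.59, SE 0.42, adjusted p = 0.306), while FSC exceeded the mean of HPC by 2.24 (SE 0.29, adjusted p = 8.43e-06, 3 of 4 lanes above every HPC type). Le and EC were at 2.92 and 2.97, and their shares of cells were at background. An Otsu threshold gave 75.2% of FSC, 53.1% of G, 20.1% of L, 17.2% of T, 13.01% of C and 7.63% of S as expressing. The share in G was 42.1% and 31.4% in the female and 78.3% and 78.7% in the male lanes, and in L it was 5.65% and 3.88% in the female and 36.2% and 30.95% in the male lanes. Counts were scaled by each cell's total, so 1 UMI reaches the threshold more easily in a shallow cell. Female L had a median of 18301 UMIs per cell and male L 7253.5. Raw *Gstm7* UMIs were 52 and 48 in 124 and 103 female L, and 96 and 72 in 130 and 126 male L. These shares therefore do not separate the sexes from depth.

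The theta class genes *Gstt1* and *Gstt3*, which a RefSeq table of assembly GRCr8 lists as neighbours on chromosome 20, are described in turn. *Gstt1* was 70.2 and 67.4 normalized CPM in FSC of the female lanes and 66.0 and 67.0 in the male lanes, with C next at 46.9, 41.6, 50.3 and 44.8. These values do not overlap, but the difference between FSC and C missed the limit (log2 fold change 0.51, SE 0.22, adjusted p = 0.073). C exceeded G, the lowest HPC type at 12.3 ± 2.44, by 1.90 (SE 0.29, adjusted p = 0.000294). Against the mean of HPC, FSC were higher by 1.505 (SE 0.17, adjusted p = 1.9e-06, 4 of 4 lanes). The shares of cells expressing *Gstt1* were 40.5% in FSC, 37.4% in C and 7.53% in G.

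*Gstt3* was 115 and 115 normalized CPM in FSC of the female lanes and 144 and 144 in the male lanes. L and S followed with 11.2 ± 3.45 and 9.87 ± 2.05, and these stood above C (adjusted p = 0.000141 for L and 7.02e-05 for S), at 1.08 ± 0.41. In G, 0 UMIs were counted in 239 cells, where 3 UMIs would give 1.07 CPM. With G set to 3 UMIs and raw CPM of the 4 lanes together, the log2 difference between FSC and the mean of HPC was 5.77, and the fitted value, which depends on a prior count in G, was 6.43 (adjusted p = 3.31e-11, 4 of 4 lanes). *Gstt3* was expressed in 58.3% of FSC, 4.76% of L and 3.34% of S.

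*Gsta4*, whose product conjugates the lipid peroxidation aldehyde hydroxynonenal, was 52.0 and 48.9 normalized CPM in FSC of the female lanes and 47.3 and 50.3 in the male lanes. In T and EC 0 UMIs were counted, and no lane of another type of the fit exceeded 6.41 (L). With T set to 3 UMIs the log2 difference from HPC was 4.90 on raw CPM, and the fitted value was 5.87 (adjusted p = 4.32e-08, 4 of 4 lanes). *Gsta4* met the filter on low counts through FSC alone, so both values are descriptions. Of the other types of the fit none had a share of cells with a UMI above the interval of E, at 2.77% of 361 cells. The table also lists LOC100909835, which the RefSeq table names as a *Gsta4* pseudogene. It was also highest in FSC, at 132 ± 15.1 normalized CPM, and next in L, at 18.5 ± 10.8. Reads that fit both copies could be lost or split, so the 2 levels are uncertain.

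*Mgst1*, an enzyme of the endoplasmic reticulum and the outer mitochondrial membrane, was 321 and 343 normalized CPM in FSC of the female lanes and 366 and 366 in the male lanes. S came next at 85.4 ± 4.53, which FSC exceeded by 1.96 (SE 0.21, adjusted p = 1.27e-06), and then Le at 59.6 ± 10.3, C at 43.2 ± 5.29 and G at 28.1 ± 10.7. In T and EC, at 6.64 and 1.49, the share of cells was not separated from the background. Of the 28 pairs of types *Mgst1* differed in 19, the most of the 10 genes, and 5 of these lay among the HPC types. S exceeded L, at 13.8 ± 2.84, by 2.68 (SE 0.24, adjusted p = 4.09e-06). Against the mean of HPC, FSC were higher by 3.82 (SE 0.15, adjusted p = 1.06e-11).

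*Gstp1* was found at a high level in every type of the fit. In FSC it was 424 and 421 normalized CPM in the female lanes and 391 and 349 in the male lanes, and in L 414, 414, 343 and 296. FSC, L and EC (342 ± 35.9) overlapped and did not differ between neighbours, and the lowest type was C with 153 ± 11.5. Of the 28 pairs of types 3 passed the limit, C below FSC (adjusted p = 8.96e-05), below L (0.000566) and below EC (0.000632). FSC exceeded the mean of HPC by 0.74 (SE 0.15, adjusted p = 0.000695, 4 of 4 lanes above every HPC type in the same lane). This call was lost by a small margin when 7 hormone genes were left out of the table (0.70, adjusted p = 0.00101).

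*Gsto1* was the only member that was lower in FSC. In FSC it was 36.1 and 34.0 normalized CPM in the female lanes and 41.8 and 40.5 in the male lanes, the lowest of the 8 types. G, T and S were at 179 ± 21.1, 177 ± 59.9 and 174 ± 29.5 and did not differ, with EC, C and L between 111 and 120. FSC were below the mean of HPC (log2 fold change -2.004, SE 0.20, adjusted p = 4.54e-07, below every HPC type in 4 of 4 lanes) and below each HPC type and EC in pairs. FSC and Le, at 65.4 ± 6.10, did not differ at the limit (adjusted p = 0.0192). *Gsto1* was expressed in 24.3% of FSC and in 48.7% of L to 75.9% of T.

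**Figure D2:**
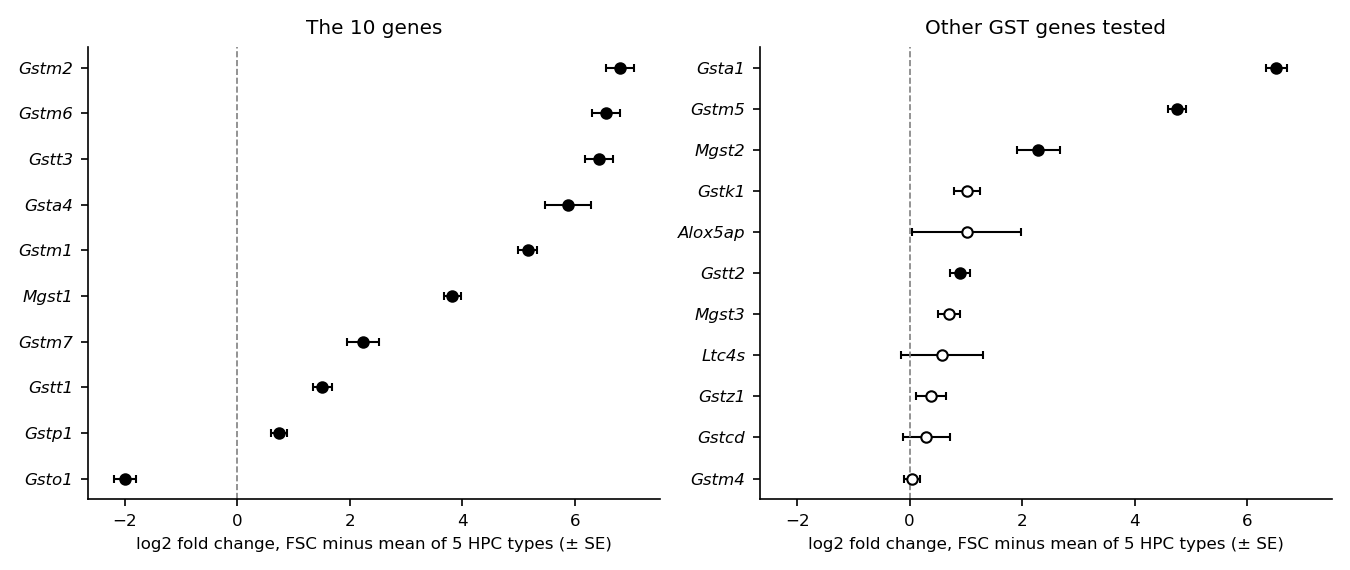
Log2 fold change between FSC and the mean of the 5 HPC types with its SE from edgeR, on the left for the 10 genes and on the right for the other GST genes that passed the filter; filled points have an adjusted p below 0.001. Of the 10 genes only *Gsto1* lies left of 0, at -2.004, and *Gstm2* is shown from the FSC rule without it. *Gstm6* and *Gsta4* met the filter through FSC alone.

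Over the 28 pairs of the 8 types, the 9 genes without *Gstm2* passed the limit in 96 of 252 tests, and 14.1% of all tests over all genes did. *Gstm6* and *Gsta4* differed in 7 pairs each, all of them with FSC, and *Gstm2* likewise in the cells found without it. Outside FSC a type held 1 (G) to 15 (S) *Gstm6* UMIs, against 1857 in FSC. All HPC together held 71 *Gsta4* UMIs, against 1095 in FSC. For these 2 genes, pairs without FSC had too few counts to show a difference, and both met the filter on low counts through FSC alone. *Gstp1* differed in 3 pairs and *Gsto1* in 9.

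Members of 1 class that share long stretches can take each other's reads, and reads that fit more than 1 gene are dropped by the counting. *Gstm7*, *Gstm6*, *Gstm2* and *Gstm1* lie in this order on chromosome 2 of GRCr8 with other mu class genes among them, and gene ends had been extended without regard to strand. Levels of the mu and theta genes carry this uncertainty, and it was not tested.

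Shares of cells depend on depth, which was lower in FSC than in HPC. Low depth lowers the share with at least 1 UMI, but it can raise the share at the Otsu threshold. For *Gstm7*, 79.9% of FSC and 26.9% of S had a UMI, and 75.2% and 7.63% reached the threshold. With each cell thinned to 2000 UMIs, a *Gstm1* UMI was found in 65.5% of FSC and 1.48% of S, *Gstm2* in 69.4% and 1.01%, *Mgst1* in 55.3% and 13.5%, and *Gstp1* in 53.8% and 33.5%. *Gstm7* was found in 43.5% of thinned FSC, *Gstt3* in 27.5%, *Gstm6* in 14.99%, *Gstt1* in 14.3% and *Gsta4* in 11.1%. *Gsto1* was found in 8.64% of thinned FSC and in 22.4% of thinned S, the same direction as its level.

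Single FSC often held several of these transcripts. The median FSC had a UMI for 7 of the 10 genes, and the median over HPC types was 2 or 3. When each cell was thinned to 2000 UMIs, with 0 cells too shallow, FSC had a median of 4 genes with a UMI and a mean of 3.57, 3.58, 3.70 and 3.72 over the lanes. Thinned HPC types had means from 0.762 (L) to 1.06 (G), EC 0.977, Le 0.436 and E 0.0388. At least 5 of the 10 genes were found in 27.3% of thinned FSC and in 0.126% of C, and in 0% of every other type. No gene was found in 1.34% of thinned FSC and in 30.96% (G) to 42.2% (L) of HPC. Since *Gstm2* helped to choose FSC, the count is not independent of the rule by up to 1 gene.

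**Figure D3:**
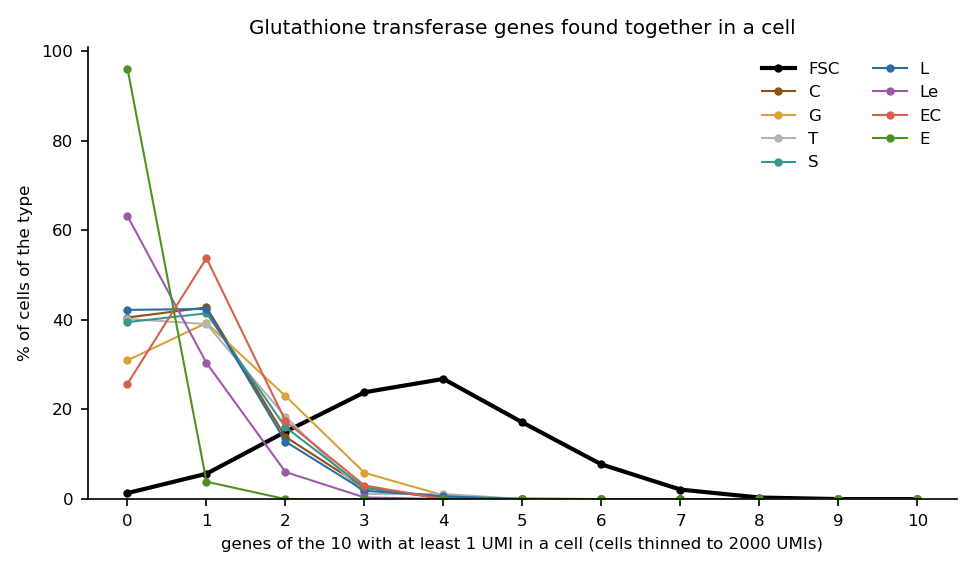
Share of the cells of each type (percent) by the number of the 10 genes with at least 1 UMI after thinning each cell to 2000 UMIs. FSC (thick line) have a median of 4 genes, whereas the HPC types and EC peak at 0 or 1 and 96.1% of E have none.

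By themselves, FSC fell into 4 groups when clustered (Leiden, resolution 0.5) on variable genes without any GST gene. Group 1 of 886 cells was led by *Gpha2*, *Agt* and *Sparcl1*, group 2 of 702 by *Cldn3*, *Rab25* and *Krt7*, group 3 of 693 by *Cxcl1*, *Cebpd* and *Irf1*, and group 4 of 34 by the mitotic genes *Cdca3*, *Ube2c* and *Top2a*. Each of the first 3 groups came from both sexes, with 48.6% to 52.3% of cells from females and median depths of 6643 to 6980 UMIs. Groups depend on the chosen resolution and share the cells they were made from, so the following are descriptions without a test.

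In group 1, *Gstm1* was 938 and 1003 CPM (not TMM scaled) in the female lanes and 1196 and 1197 in the male lanes. In group 2 it was 294 and 430 in the female and 492 and 509 in the male lanes, with group 3 between them at 605 to 699. *Gstp1* had the same order, with 612 to 810 in group 1, 267 to 318 in group 2 and 321 to 445 in group 3. *Mgst1* was also highest in group 1, at 441 to 592, against 332 to 379 in group 2 and 342 to 379 in group 3. *Gstm2* was 778 to 958 in group 1, 562 to 617 in group 2 and 609 to 662 in group 3. *Gstm7* was turned around, with 421 to 512 in group 2, 271 to 300 in group 1 and 194 to 244 in group 3. The lanes of the group that was highest did not overlap those of the other 2 for these 5 genes, nor for *Gsta4* below. How often this holds over all genes was not counted, and the groups were made from these same cells. The lanes of *Gstm6*, *Gstt1* and *Gsto1* overlapped between groups 1 and 2. *Gstt3* was 150 to 234 in group 1 and 114 to 135 in group 2 and overlapped with group 3. *Gsta4* was 64.0 to 68.2 in group 1, 51.2 to 62.6 in group 2 and 45.7 to 57.5 in group 3.

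**Figure D4:**
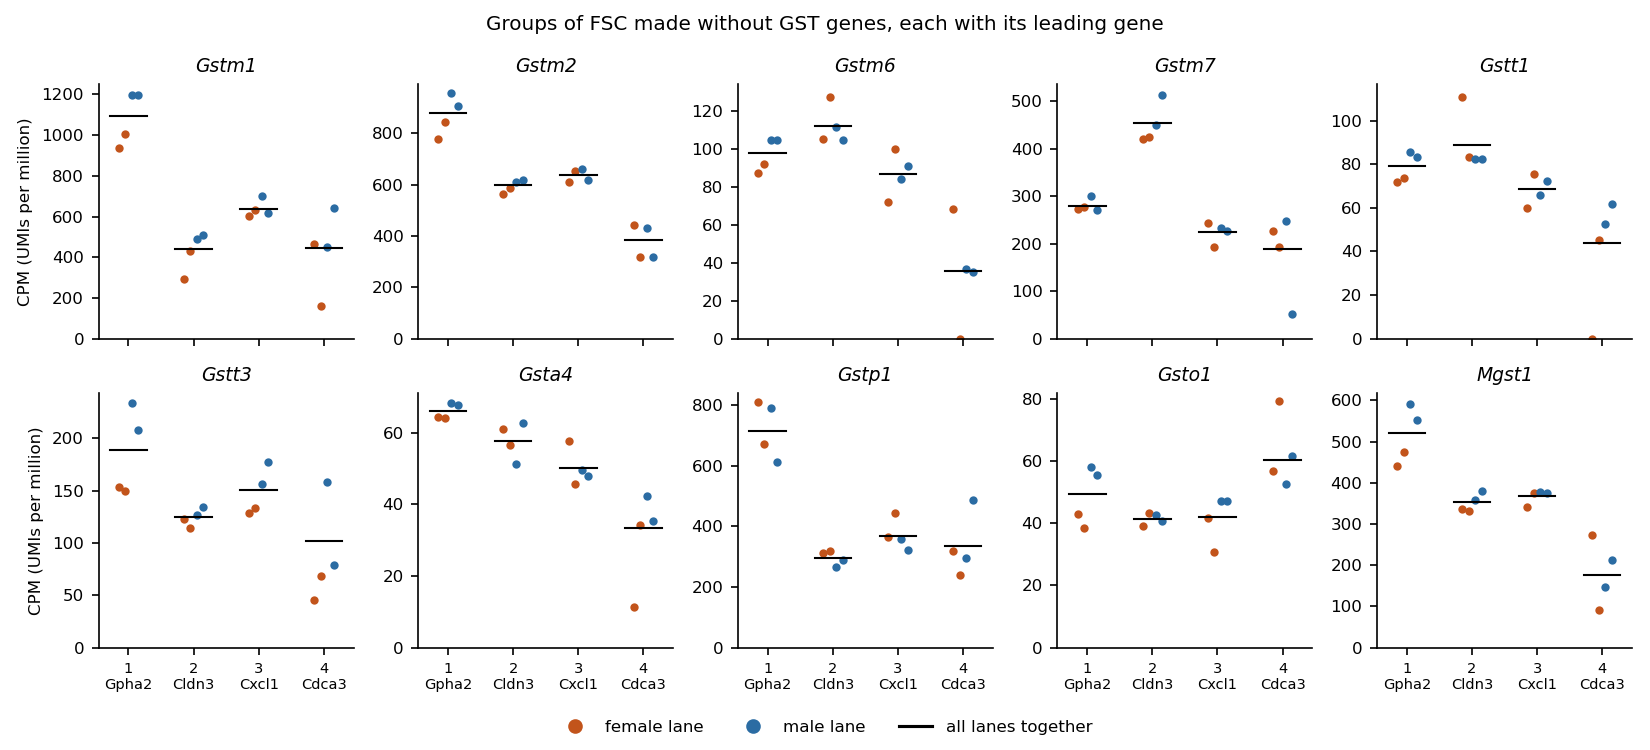
CPM of the 10 genes in 4 groups of FSC clustered without GST genes, with 1 point per lane and a bar for all lanes together. *Gstm1* and *Gstp1* are highest in group 1 (leading gene *Gpha2*) and *Gstm7* in group 2 (*Cldn3*), where its lanes lie between 421 and 512; group 4 (*Cdca3*) rests on 34 cells.

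Cells of types that the study set aside, found here by its marker rules, also held these transcripts. Doublets, outlier cells and cells with high mitochondrial counts were not removed from these cells. Levels are given as raw CPM with exact Poisson intervals that cover counting error only. In 51 pericytes *Gstm2* was 502 (432 to 580) and *Gstt3* 162 (123 to 209), beside 699 and 153 in FSC. In the same pericytes *Gstm1* was 87.8 against 719 in FSC, *Mgst1* 8.23 (3 UMIs) against 410 and *Gstm6* 5.48 (2 UMIs) against 98.1. In 59 cells of putative posterior pituitary origin, 55 of them from males, *Gsta4* was 391 (345 to 441), against 57.8 (54.5 to 61.4) in FSC, and LOC100909835 was 1159 (1079 to 1244) against 156. Their rule uses *S100b*, which is also in the rule for FSC, so the label is uncertain. In 60 melanotrophs, 56 of them from males, *Gstp1* was 946 (877 to 1020), against 460 (450 to 469) in FSC and 162 in C. The 4 female cells of putative posterior origin held 0 *Gsta4* UMIs, with *Gstm2* at 413 against 139 in the male ones. No test was made on any of the cells set aside.

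Genes whose level followed that of a member other than *Gstm2* over the 16 sums of type and sex were named by Pearson's r of log2(CPM + 1), as a description over sums that share lanes and pools. For *Gstm6* these were *Aqp4* (r = 0.965), *Gpr37l1* and *Tmem212*, and for *Gstt1* *Vof16* (0.984), *Ncam1* and *Usp51*. *Gsta4* was followed by *Colq* (0.9497), LOC102552958 and *Sox9*, *Gstm1* by *Efna4* (0.944), *Plce1* and *Srf*, and *Gstm7* by LOC103692385 (0.949), *Sox5* and RGD1307947. *Gstt3* was followed by *Ankdd1a* (0.925), *Pla2g5* and *Tyro3*, *Gstp1* by *Lhfp* (0.922), *Spag5* and *Akr1c19*, *Gsto1* by *Cox6a1* (0.920), *Gpr85* and *Atp6v0a1*, and *Mgst1* by *Scp2* (0.890), *Mrpl16* and *Sept10*. *Gsto1* reached at most -0.022 with any other member.

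Other GST genes and genes related to them were described by the same contrast, in which 17.3% of all genes tested were higher and 9.24% lower in FSC. Of 20 other GST genes counted, 11 passed the filter, 4 were higher in FSC, 0 lower and 7 did not pass the limit, with a median log2 fold change of 0.89 (0.70 with types at 0 set to 3 UMIs). *Gsta1* (log2 fold change 6.52, SE 0.18, adjusted p = 3.86e-13) was at 280 normalized CPM in FSC and at most 16.2 elsewhere (EC), and *Gstm5* (4.75, SE 0.16, adjusted p = 2e-12) at 283 and at most 19.96. *Mgst2* (2.29) and *Gstt2* (0.89) were the other 2. *Ltc4s* and *Alox5ap*, genes of leukotriene synthesis, were at 349 and 446 in Le and at most 2.42 in FSC and in each HPC type. None of the 11 fitted edgeR log2 fold changes was below 0, but with types at 0 set to 3 UMIs those of *Ltc4s* and *Alox5ap* were -1.17 and -1.07.

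Genes that make, recycle and break down glutathione did not share one direction. Over all genes tested, 17.3% were higher and 9.24% lower in this contrast. Of the 26 tested in this list, 8 were higher in FSC, 4 lower and 14 did not pass, with a median of -0.02. Among the higher were *Gpx8* (5.33, SE 0.31), a peroxidase of the endoplasmic reticulum, and *Gclc* (1.88, SE 0.24), the catalytic subunit of the rate-limiting enzyme of glutathione synthesis. *Gclm*, its modifier subunit, had -0.13 (adjusted p = 0.534) and *Gss* -0.21 (adjusted p = 0.432). *Gpx7* (2.07), *Gpx2* (2.02) and *Gpx1* (1.998), further peroxidases, were higher too, with *Gpx1* highest in Le, at 1419 normalized CPM. *Slc7a11*, the cystine carrier, and its partner *Slc3a2* were higher, at 9.37 and 312 normalized CPM in FSC, as was *Anpep*, a membrane peptidase, at 12.3 in FSC against 5 UMIs in all HPC. With types at 0 set to 3 UMIs, the log2 differences of *Anpep* and *Slc7a11* were 4.92 and 3.78. Both genes met the filter on low counts through FSC alone, so their calls are descriptions. *Gclc* was higher still in Le, at 47.2 against 21.9 in FSC. Lower were *Gpx3* (-5.90, SE 0.39), the secreted peroxidase, at 28.1 normalized CPM in FSC and 696 (C) to 3154 (L) in HPC, *Oplah* (-2.83), *Hagh* (-2.52) and *Glrx2* (-1.19).

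Of 6 genes of conjugate export 0 were higher and 1, *Abcc5* (-1.45, SE 0.25, adjusted p = 0.000171), was lower, with a median of -0.39. The shares over all genes tested were 17.3% higher and 9.24% lower. *Abcc1* had -0.11 (adjusted p = 0.826). By edgeR, *Abcc4* had an adjusted p of 0.0203 and was the only one of the 6 that was higher with an adjusted p below 0.05. Its highest level was in G, at 16.2 normalized CPM against 9.82 in FSC.

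Of 21 genes of the NRF2 system 7 were higher, 4 lower and 10 did not pass, with a median of 0.39. Beside this, 17.3% of all genes tested were higher and 9.24% lower. *Nqo1*, a classical NRF2 target, was at 50.2 normalized CPM in FSC and at most 12.96 elsewhere (C) (log2 fold change 3.15, SE 0.27, adjusted p = 1.13e-07). *Maff* (3.83) and *Mafk* (2.42), small MAF partners, *Hmox1* (2.74), *Nfe2l2* itself (1.65), the ferritin gene *Fth1* (1.04) and *Slc7a11*, which is in both lists, were higher. *Srxn1* (-3.47), *Keap1* (-0.88), the NRF2 inhibitor, *Nfe2l1* (-0.87) and *Sqstm1* (-0.80) were lower. *Nfe2l2*, *Hmox1* and *Fth1* were highest in Le, at 181, 345 and 14418 normalized CPM. So was *Mafk*, at 20.8 against 18.7 in FSC. Over the 4 lists the split of calls was 18 higher and 9 lower, and with library size in place of TMM factors it was 23 and 5.

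Because many antioxidant genes share the antioxidant response element, the 250 bases before the starts of the members were searched for its core, TGACNNNGC, on both strands. The sequences come from RefSeq (assembly GRCr8, later than the annotation used for the counts), which held such a window for 9 of the 10 genes. *Gstp1* and *Gstm7* held 1 match each, 61 and 14 bases before the start, and the other 7 genes none, while 10.1% of all 33469 windows held at least 1. A relation of matches to levels was not tested. As examples, the last 120 bases are shown for *Gstp1*, with its match in capitals, and for *Gstm6*, which had no match.
*Gstp1* (chr1:210769706-210769825, minus strand): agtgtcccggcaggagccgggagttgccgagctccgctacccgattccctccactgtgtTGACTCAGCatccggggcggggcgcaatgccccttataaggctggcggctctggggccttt
*Gstm6* (chr2:198272509-198272628, minus strand): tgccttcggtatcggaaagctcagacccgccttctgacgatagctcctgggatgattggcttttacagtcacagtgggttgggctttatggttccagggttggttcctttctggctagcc
The gene record of *Gstp1* in the same table reaches further upstream than this start. The first letters of the *Gstp1* match, TGACTCA, are also those of the AP-1 motif. A match is a description of these letters, and the absence of one says only that they are not in this window.

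Males and females were compared within each type over 2 lanes each. Of the 80 combinations of gene and type 48 passed the filter on low counts and 5 passed the limit. Among all genes tested the share past the limit was 2.91% in FSC, 0.665% in C, 4.08% in G, 1.35% in T, 10.3% in S, 18.6% in L, 0.375% in Le and 0.793% in EC. In FSC 0 of 10 members passed with edgeR and TMM factors or with DESeq2, and at an edgeR adjusted p below 0.05 *Gstm1*, *Gstt3* and *Gstp1* did. At 0.05, 729 of all 12896 genes tested in FSC were higher and 771 lower in males. *Gstt3* came nearest, with 115 and 115 in the female and 144 and 144 in the male lanes (log2 fold change 0.33, SE 0.06, adjusted p = 0.00212), and it passed with library size in place of TMM factors (0.37, adjusted p = 0.000539).

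*Gstm7* accounted for 3 of the 5 calls, and they had different directions. In G the 2 male lanes, at 289 and 266 normalized CPM, stood above the 2 female lanes, at 99.7 and 100.3 (log2 fold change 1.47, SE 0.14, adjusted p = 7.36e-06). In L the male lanes at 86.4 and 73.5 stood above the female lanes at 37.0 and 34.8 by 1.14 (SE 0.20, adjusted p = 1.33e-06). In S the male lanes at 21.0 and 19.4 lay below the female lanes at 45.6 and 47.9 (log2 fold change -1.20, SE 0.11, adjusted p = 1.77e-09). The female and male lanes did not overlap in these 3 types, nor in FSC and C, so this does not set the 3 types apart. How often lanes do not overlap over all genes was not counted. In FSC the log2 fold change was 0.08 (SE 0.05) and in C -0.31 (SE 0.15), and both missed the limit. With DESeq2 the call in L was lost (1.13, adjusted p = 0.00445).

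The male minus female difference of *Gstm7* was compared between types in 1 fit over all lanes, a comparison chosen after its values were seen. It differed between G and S by 2.65 (SE 0.20, adjusted p = 2e-15), between S and L by -2.31 (SE 0.24, adjusted p = 1.39e-11) and between FSC and G by -1.38 (SE 0.17, adjusted p = 1.07e-08). Over the 28 pairs of types and all genes, 1.68% of such tests passed the limit. By pair, 181 of 12688 genes passed for G and S, 1045 for S and L and 325 for FSC and G.

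Depth and markers of other cells beside these values were as follows. The median was 12383.5 UMIs per cell in female and 8871 in male G, 18301 and 7253.5 in L, and 11579 and 15451 in S. The summed level of 6 FSC markers (*S100b*, *Fxyd1*, *Capn6*, *Sox2*, *Sox9* and *Aldh1a1*) was 39.9 and 22.9 normalized CPM in female and 27.5 and 32.4 in male G, so it overlapped, with *Sox9* at 0 in 1 lane of each sex, and it was 22.3 and 20.1 in female and 30.5 and 31.7 in male S. In L it was 29.2 and 24.7 in females and 236 and 182 in males, of which *Aldh1a1* made up 158 and 163 in the male lanes. The study reported *Aldh1a1* as a gene that L of males express themselves, and found its protein in male L. In male L it is therefore no marker of other cells. The 5 markers without *Aldh1a1* were at 19.9 and 20.3 in female and 77.4 and 18.4 in male L, so that 1 male lane lay above and the other below both female lanes. The part of these transcripts in the *Gstm7* difference in L was not tested.

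The other 2 calls were smaller. *Gsto1* in S was 194 and 204 normalized CPM in the female and 148 and 149 in the male lanes (log2 fold change -0.40, SE 0.06, adjusted p = 3.03e-06). Without the second female lane it was -0.37 (adjusted p = 0.00119). *Gstp1* in L was 414 and 414 in the female and 343 and 296 in the male lanes, with -0.39 (SE 0.09, adjusted p = 0.000355). This direction depends on the scaling: with library size in place of TMM factors it was 0.26 (adjusted p = 0.0123), where the median of all genes in L moved from 0.02 to 0.67, and DESeq2 gave -0.40 (adjusted p = 0.0302). Leaving out the first female, the second female or the second male lane also ended this call (adjusted p = 0.00139, 0.00174 and 0.0381), as did keeping doublets and outlier cells (-0.36, adjusted p = 0.00101). *Gsta4* in S, at 3.09 and 2.57 in the female and 0.78 and 0.29 in the male lanes, had -2.36 (SE 0.57) and missed the limit (adjusted p = 0.00225), on 31 UMIs. It met the filter on low counts only through the female lanes, with 13 and 11 UMIs against 5 and 2 in the male lanes. Its share of cells in S was also not above the background of E, so no difference between the sexes is read from it.

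**Figure D5:**
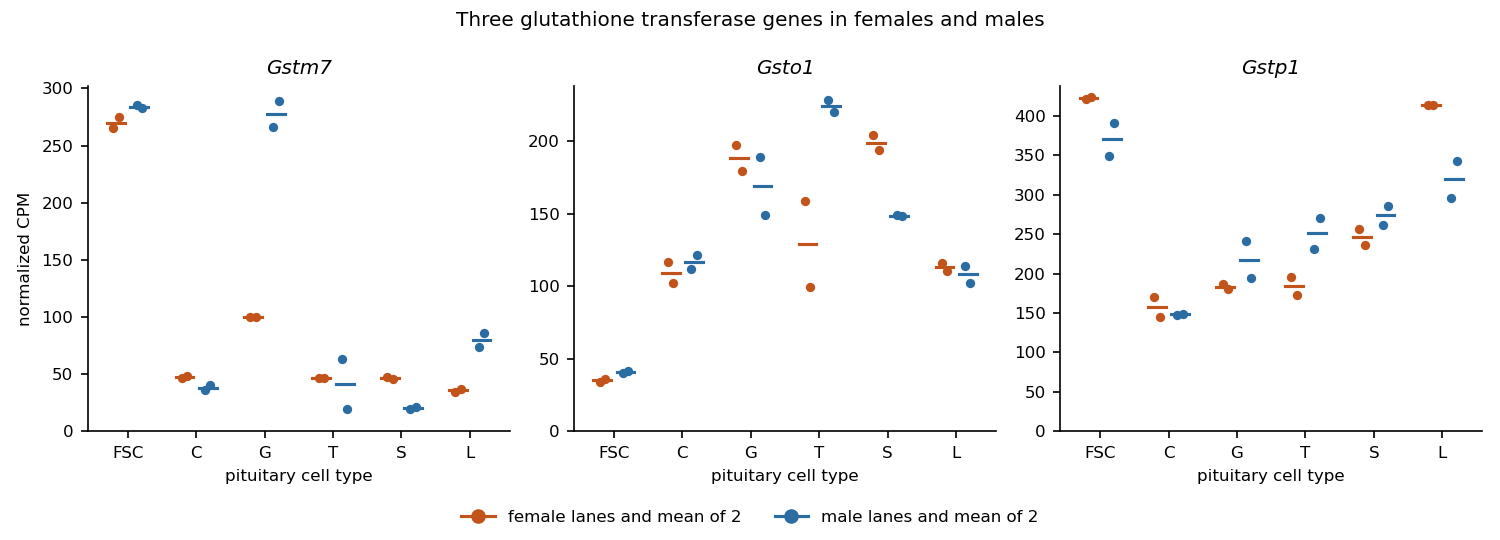
Normalized CPM of *Gstm7*, *Gsto1* and *Gstp1* in the 6 pituitary cell types, with 1 point per lane and a line at the mean of the 2 female or 2 male lanes. *Gstm7* is higher in males in G and L and lower in S, and male G, at 266 and 289, reach the level of FSC.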

How the data were processed

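Single-cell RNA sequencing counts of 4 lanes (2 female, 2 male) were used as deposited. Per the labels and the study's methods, the authors made UMI counts with Cell Ranger 2.1 against an NCBI rat annotation whose genes were extended by up to 4 kb at the 3′ end without regard to strand, and brought the lanes to equal mapped reads when joining them. The table gives each cell a lane number and no sample name, so lanes were matched to the sexes by the number of cells per lane in the study's text and checked with *Xist* and Y-linked genes, and which lane is which replicate of a sex is not known. Cells were typed by the study's marker genes. Doublets (197 called), outlier cells and cells with high mitochondrial counts were left out of the cells used. They were not removed from the pericytes, melanotrophs and posterior pituitary cells. Counts were summed by type and sex (16 sums) or by lane and tested with edgeR 4.0.16 in R 4.3.3 (quasi-likelihood, TMM, filterByExpr with a minimum count of 10, Benjamini-Hochberg over all genes tested, limit 0.001), with DESeq2 1.42.0 as an alternative. The edgeR tests between FSC and HPC and between the sexes within a type were also run on simulated data. Changes of 2-fold between the sexes were called there in 16% (T) to 76% (S) of the changed genes. Clusters of FSC used leidenalg 0.10.2 in Python 3.11.15. A cell expressed a gene when its log10 normalized count reached the Otsu threshold. Intervals are exact (95%) and cover counting error only. The members and the gene lists were chosen with earlier results of these data known. All 10 genes are named in every type, genes of the lists by counts with at most the 6 largest called changes, and 3 most-alike genes for each member except *Gstm2*, whose result is not reported here. Genes of the lists outside this rule (*Gpx1*, *Gpx2*, *Gpx7*, *Gclc*, *Gclm*, *Gss*, *Slc3a2*, *Glrx2*, *Abcc1*, *Abcc4*, *Nfe2l2*, *Keap1*, *Nfe2l1*, *Sqstm1*, *Fth1*, *Ltc4s* and *Alox5ap*) were named after their values were seen.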

Additional observations from a re-analysis of the deposited data

Results flagged for a closer look

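The male minus female difference of a gene was compared between cell types by an interaction term over the lane sums of 8 types (edgeR quasi-likelihood, adjusted p below 0.001), a test chosen after the values were seen, with lanes of 1 pool a sex as replicates. It passed in 9 of 280 combinations of gene and pair of types, and 1.68% of the tests over all genes did. By pair, from 2 (C and Le) to 1045 (S and L) of 12688 genes passed. For FSC and L 994 did, and for C and L 664. For *Gstm7* the differences on the log2 scale were -1.38 (SE 0.17) for FSC less G, 1.26 (SE 0.15) for FSC less S, -1.05 (SE 0.21) for FSC less L, -1.77 (SE 0.22) for C less G, -1.44 (SE 0.26) for C less L, 2.65 (SE 0.20) for G less S and -2.31 (SE 0.24) for S less L. For *Gsto1* it was 0.63 (SE 0.14) for FSC less S, and for *Gstp1* 0.58 (SE 0.12) for S less L. The *Gstp1* value depends on the scaling. In the fits of single types, its male minus female difference was 0.17 in S and -0.39 in L with TMM factors. With library size in their place it was 0.23 in S and 0.26 in L. The interaction was not fitted with library size only. Sex, pool and age cannot be told apart in any of these values. Groups of 2 lanes were too small for a test of single outlying lanes.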

How the results depend on the processing

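Of the 9 members tested between FSC and HPC, 8 or 9 passed under each alternative. The count over all pairs of types, 96, lay between 87 and 141, and between 87 and 96 with each lane left out. Of 63 pathway genes 27 passed, 44 at an adjusted p below 0.05, and 26 to 29 with each lane left out. Library size in place of TMM factors changed their split from 18 higher and 9 lower to 23 and 5. Over all 13609 genes tested, the split changed from 2348 and 1258 to 2824 and 770. At an adjusted p below 0.05 in the main fit it was 3889 and 2742. Between males and females 5 combinations of member and type passed, and 12 did at an adjusted p below 0.05. Over all genes at 0.05, 1300 of 8607 were higher and 1669 lower in male L, and 1584 and 1529 of 11926 in S. In FSC these were 729 and 771 of 12896, and in G 421 and 554 of 6906. With DESeq2 3 combinations passed. With library size only 8 passed, with *Gstp1* in L lost and *Gstt3* in FSC and *Gstm1*, *Gstt1* and *Gsto1* in L gained. Of these 8, 6 were higher and 2 lower in males, against 2 and 3 in the main fit. Calls over all 8607 genes in L also rose with library size only. There 2505 were higher and 331 lower in males, against 548 and 1054 in the main fit. Leaving out a lane leaves 1 lane in that sex, which is assumed to vary like the other. With library size only, *Gstp1* in L turned to 0.26. Library size moved the median of all genes to 0.39 between FSC and HPC and to 0.67 between the sexes in L. With lanes as libraries and lane as a term, which pairs the cell types within a lane, 9 members passed between FSC and HPC, 131 tests over all pairs, and 40 of 57 pathway genes. Calls over all genes rose as well in that fit. Between FSC and HPC 3120 of 11437 genes were higher and 2130 lower, against 2348 and 1258 of 13609 in the main fit. Single log2 values between FSC and HPC kept their direction and call in 116 cases and lost the call in 1, and those between the sexes in 47 and 7, with 1 turned. Shares of cells moved in 16 of 80 cases, and depth limits them. No paired analysis was possible because female and male lanes carry no replicate number that ties them to the labels, so this holds for the sexes only.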
